A study of Arabidopsis thaliana with 126 samples.

Results

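The 10 brassinosteroid genes described here were taken by locus from the 33602 genes of each table, and all 10 passed the filter on low values in both. *DWF4* (AT3G50660), *CPD* (AT5G05690), *BR6OX1* (AT5G38970), *BR6OX2* (AT3G30180), *ROT3* (AT4G36380) and *DET2* (AT2G38050) encode enzymes that build the hormone. *BAS1* (AT2G26710) encodes an enzyme that inactivates it, *BRI1* (AT4G39400) the receptor, and *BZR1* (AT1G75080) and *BES1* (AT1G19350) the transcription factors that answer to the receptor. The study asked how ethylene (ET) responses depend on *REF6*, which encodes a histone demethylase for the repressive mark H3K27me3, and on EEN, which belongs to INO80, a complex that remodels chromatin. RNA was sequenced from etiolated *Arabidopsis thaliana* seedlings that had grown for 3 days in the dark in hydrocarbon-free air, some of them followed by 4 hr of ET gas. In the L*er* table, *ein2-45*, *ein6-1 een-1*, *een-1*, *ein6-1* and the wild type Landsberg *erecta* (L*er*) were each measured after ET and in air, which makes 10 groups and 20 libraries. In the Col-0 table, *arp5-1*, *ino80-8*, *een-2* and the wild type Columbia (Col-0) were measured in air only, which makes 4 groups and 8 libraries.

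Each group held 2 libraries, which the paper calls biological replicates. The *ein6-1* allele is a small deletion in *REF6* and *een-1* is an inversion that breaks near the 5′ end of *EEN*, and both come from 1 fast-neutron mutant of L*er*. *ein2-45* carries a defect in *EIN2*, which encodes a central ET signal transducer, in L*er*. *arp5-1*, *ino80-8* and *een-2* carry lesions in *ARP5*, *INO80* and *EEN* in Col-0, where INO80 and ARP5 are the ATPase and an actin-related subunit of the same complex. L*er* itself carries the *erecta* mutation, which all groups of its table share.

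Brassinosteroids are steroid hormones that drive cell elongation, and seedlings that cannot make or sense them are short and open in the dark. A chain of cytochrome P450 enzymes and a steroid reductase turns campesterol into castasterone and brassinolide. These bind the receptor kinase BRI1 at the cell surface, which ends the inhibition of BZR1 and BES1 by the kinase BIN2. BZR1 and BES1 then bind DNA, raise growth genes and repress the synthesis genes, so that *DWF4* and *CPD* are held down when the hormone is plentiful.

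Values are TPM (each gene's share of all transcripts in a library, corrected for transcript length and set on a common total), and their number of reads is unknown. Ribosomal RNA genes held 2.80% to 30.3% of TPM in the L*er* table and 0.921% to 3.54% in the Col-0 table, the most in *ein6-1* ET replicate 2, and every other TPM in a library is lowered as that share grows. Fold changes were therefore tested on TPM and again after dividing each library by its median-of-ratios factor ("rescaled"), which ran between 0.623 and 1.15 for the L*er* table and between 0.896 and 1.06 for the Col-0 table. A common factor did not bring *ein6-1* ET replicate 2 level with replicate 1 for every gene. Rescaled, *BRI1* was at 44.5 in replicate 2 and 80.3 in replicate 1, and *DET2* at 29.7 and 19.2. On TPM the median gene moved by more than 0.1 on the log2 scale in 10 of the 16 comparisons. Fold changes are differences of log2(TPM + 1), tested with limma in 1 model per table with adjustment over all genes tested, 20592 of the L*er* table and 20152 of the Col-0 table, and a gene is called at an adjusted p below 0.05. *EIN2* itself had 8.24 and 9.38 TPM in *ein6-1 een-1* in air, against 44.1 and 51.2 TPM in L*er* in air. The targeted gene was low in *een-2* (*EEN* at 0.32 and 1.01 TPM, against 38.6 and 50.3 in Col-0) and in *ino80-8* (*INO80* at 2.87 and 3.41 TPM, against 19.0 and 20.5), while *ARP5* had 3.96 and 4.37 TPM in *arp5-1*, against 5.36 and 5.51. *REF6* and *EEN* were not lower in the libraries of their own mutants, with *REF6* at 9.51 and 10.7 TPM in *ein6-1* in air, against 4.76 and 5.66 TPM in L*er* in air, and *EEN* at 29.5 and 34.9 TPM in *een-1* in air, against 21.7 and 21.9 TPM. The dark-grown marker *PORA* lay between 213.7 and 1220 TPM in all 28 libraries. In air it had 294.2 to 357.5 TPM in L*er*, 213.7 to 279.4 in *ein6-1 een-1* and 568 to 702.6 in *ein6-1*. It had 628.8 to 939 TPM in *een-1* and 681.7 to 785.9 in *ein2-45*. In *arp5-1* (467.3 to 650.7) and *ino80-8* (588.1 to 633.1) it lay below Col-0 (806.2 to 1058), and *een-2* overlapped. The other such marker, *HLS1*, went the other way in *ein6-1* and *ein2-45* (means of 5.64 and 5.23 TPM, against 6.67 in L*er*). The part of both markers was not tested. Markers of maturing seed (*CRA1*, *OLEO1*, *EM1*) summed to between 21.7 and 5444 TPM, and their sums are given beside the comparisons in air. Fewer cells of a type and less RNA per cell cannot be told apart in these whole-seedling libraries.

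*DWF4*, the P450 gene for the rate-limiting hydroxylation of the side chain, and *BR6OX1*, a P450 gene for the late oxidation that makes castasterone, were the members that fell most after ET. They fell in L*er*, *een-1* and *ein6-1* on both scales. In *ein6-1 een-1* and *ein2-45* neither passed the test. In L*er*, *DWF4* had 11.1 and 13.2 TPM after ET, against 31.3 and 36.0 TPM in air. *BR6OX1* had 2.69 and 3.15 TPM after ET, against 7.56 and 7.61 TPM in air. For both genes the ET libraries lay below the air libraries with no overlap. With 2 libraries a group, ranges can lie apart by chance, and the share of all genes without overlap was not counted. The log2 fold change of *DWF4* was -1.40 (SE 0.19, adjusted p = 4.8e-05 by limma, n = 2) and that of *BR6OX1* was -1.13 (SE 0.24, adjusted p = 0.0038), where SE is the standard error. Rescaled, they were -1.66 (adjusted p = 1e-07) and -1.37 (adjusted p = 3.2e-05).

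*DWF4* lies on chromosome 3 (18813949 to 18817405, minus strand) and *BR6OX1* on chromosome 5 (15594674 to 15598089, minus strand) in TAIR10.1, the RefSeq release of the TAIR10 genome. *CPD*, on chromosome 5 (1702640 to 1706948, minus strand), is shown beside them because it did not fall with ET. The 250 bases before the start of each gene follow, on the strand of the gene. Capitals mark the E-box CANNTG, which BES1 is known to bind with partner proteins.
*DWF4* promoter, chr3:18817406-18817655: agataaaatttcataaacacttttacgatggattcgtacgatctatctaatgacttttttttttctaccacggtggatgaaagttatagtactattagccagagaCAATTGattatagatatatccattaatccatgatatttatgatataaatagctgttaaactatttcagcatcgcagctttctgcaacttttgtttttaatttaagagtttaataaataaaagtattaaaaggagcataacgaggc
*BR6OX1* promoter, chr5:15598090-15598339: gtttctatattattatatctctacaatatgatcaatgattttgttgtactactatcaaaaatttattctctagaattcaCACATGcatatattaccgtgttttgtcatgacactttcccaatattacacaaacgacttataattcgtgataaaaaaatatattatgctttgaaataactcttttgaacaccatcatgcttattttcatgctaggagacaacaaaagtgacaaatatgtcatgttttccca
*CPD* promoter, chr5:1706949-1707198: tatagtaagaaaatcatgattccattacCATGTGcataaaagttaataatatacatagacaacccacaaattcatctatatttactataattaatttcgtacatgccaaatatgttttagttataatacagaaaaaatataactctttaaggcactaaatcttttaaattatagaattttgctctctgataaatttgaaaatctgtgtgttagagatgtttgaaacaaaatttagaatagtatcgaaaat
Each of the 3 windows holds 1 E-box, and 55.3% of 27437 promoters of the same length hold at least 1. Neither CGTGCG nor CGTGTG, the letters of the brassinosteroid response element bound by BZR1 and BES1, is in any of them on either strand, and 6.71% of all promoters hold one or the other. The G-box CACGTG, which is itself an E-box, is also missing from the 3 windows and stands in 6.49% of promoters. Of the 10 members, *BZR1* alone holds CGTGTG (at 2 places) and a G-box. Of the other members, *BR6OX2* alone holds a motif to which REF6 binds (CTCTGTTT, CTCTGTTC, CTCTGCTT or CTCTGCTC), which stands in 5.77% of promoters. These are matches of letters in windows of 250 bases, and no binding was measured here. Bases further upstream or inside the genes were not searched.

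**Figure D1:**
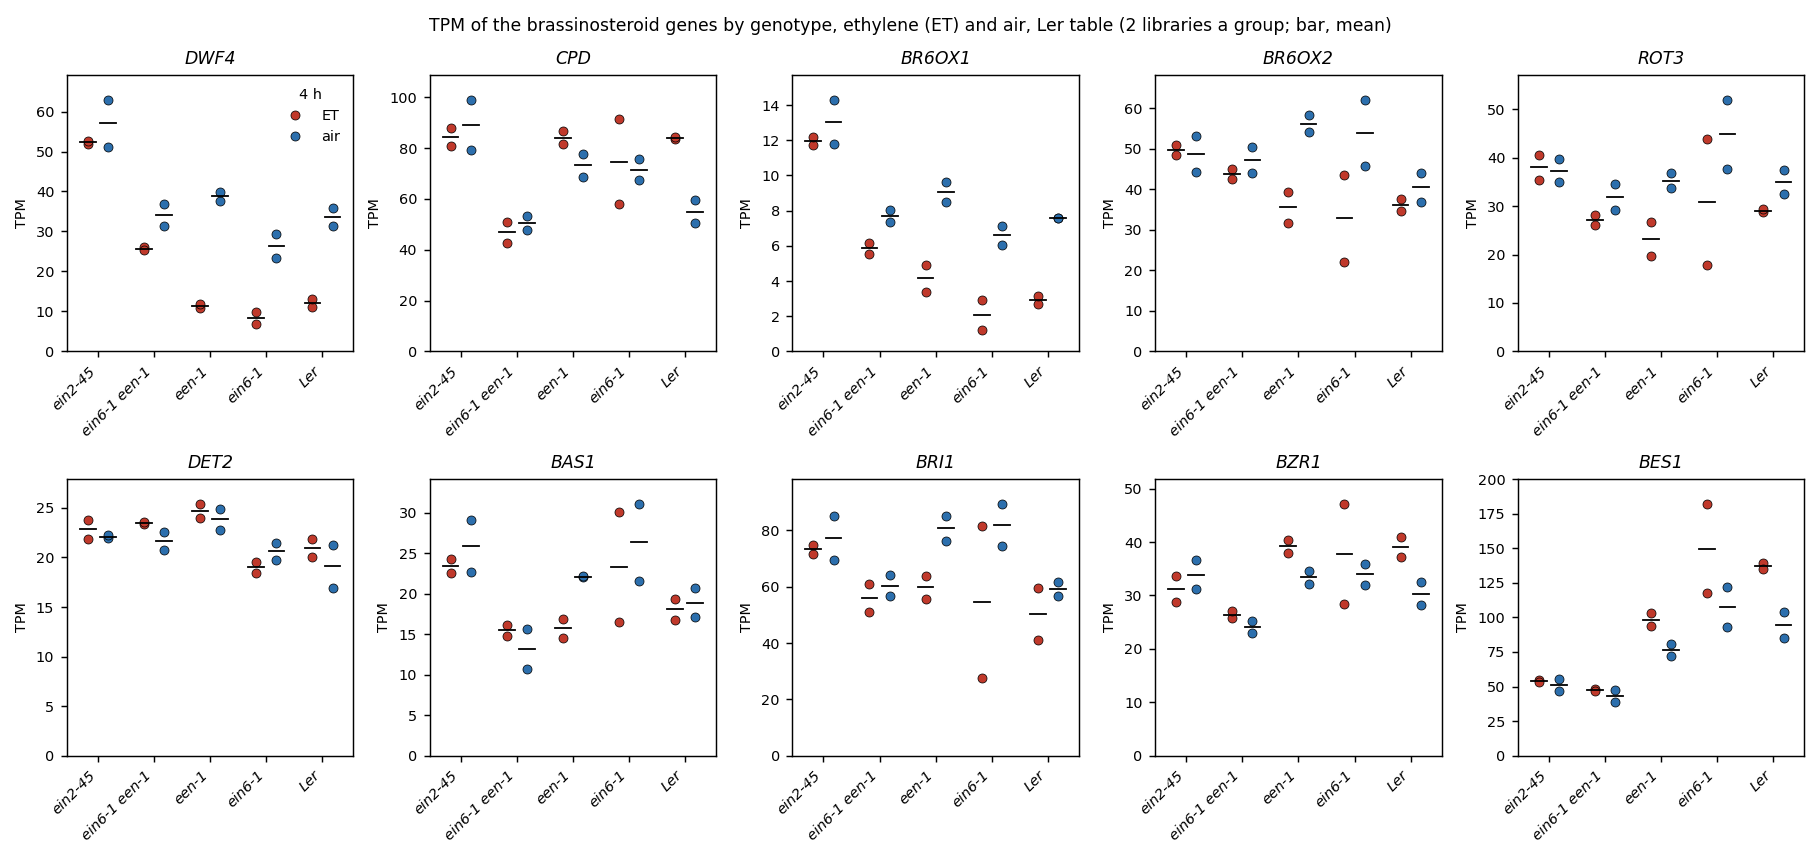
TPM (vertical axis) of each of the 10 genes in the L*er* table, by genotype (horizontal axis), with seedlings after 4 hr of ET in red to the left of seedlings in air in blue. Points are libraries (2 a group) and bars are means. *DWF4* and *BR6OX1* are low after ET in *een-1*, *ein6-1* and L*er*, and *BES1* is low in *ein2-45* and *ein6-1 een-1* in both conditions.

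In L*er*, 3 of the 10 members were called after ET, where 19.5% of all tested genes were called. Rescaled, 5 of 10 were called, where 21.7% of genes were. The third gene on TPM was *CPD*, which encodes the P450 that oxidises the steroid ring after DWF4 has acted, and it rose. Its levels were 83.5 and 84.4 TPM after ET, against 50.4 and 59.5 TPM in air, and the groups did not overlap. The log2 fold change was 0.61 on TPM (adjusted p = 0.030) and 0.34 rescaled (adjusted p = 0.034), so *DWF4* and *CPD* moved in opposite directions. The *CPD* call on TPM was lost without any 1 of the 4 L*er* libraries (adjusted p = 0.24 and 0.058 without air replicates 1 and 2, and 0.10 and 0.13 without ET replicates 1 and 2). *BR6OX2*, which encodes the enzyme that also makes brassinolide itself, and *ROT3*, which encodes a hydroxylase of the steroid side chain, were called lower only after rescaling (log2 fold changes -0.42 and -0.52, adjusted p = 0.039 and 0.049). On TPM their log2 fold changes were -0.16 and -0.25.

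*DET2*, the steroid reductase gene, lay between 16.9 and 21.9 TPM in the 4 L*er* libraries, and the 2 groups overlapped. *BAS1* overlapped as well, with 16.7 and 19.4 TPM after ET and 17.1 and 20.7 TPM in air. Their 95% intervals of the log2 fold change ran between -0.20 and 0.47 for *DET2* and between -0.58 and 0.46 for *BAS1*, so that changes of these sizes are not excluded. *BRI1* had 41.1 and 59.5 TPM after ET, against 56.6 and 61.8 TPM in air. *BZR1* had 41.0 and 37.2 TPM after ET, against 28.2 and 32.4 TPM in air. *BES1* had 139.7 and 134.9 TPM after ET, against 85.1 and 104.0 TPM in air, a log2 fold change of 0.54 (adjusted p = 0.054) and of 0.27 rescaled (adjusted p = 0.15). Without either *ein6-1* ET library, which add only to the shared spread here, *BES1* (adjusted p = 0.0083) and *BZR1* (0.034) were also called as higher on TPM. Over the 10 members the median log2 fold change was -0.11, against 0.25 over all tested genes, and -0.37 rescaled, against 0.02.

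In *een-1*, *DWF4* had 10.9 and 12.0 TPM after ET, against 37.7 and 39.8 TPM in air. *BR6OX1* had 4.92 and 3.38 TPM after ET, against 9.63 and 8.47 TPM in air. Again the libraries of the 2 groups did not overlap for either gene. *DWF4* fell by 1.68 on the log2 scale (adjusted p = 8.3e-06) and *BR6OX1* had a log2 fold change of -0.98 (adjusted p = 0.015). After rescaling the values were -1.70 (adjusted p = 1.3e-07) and -0.99 (adjusted p = 0.00082). On TPM the *BR6OX1* call was lost without *een-1* air replicate 1 (adjusted p = 0.15), air replicate 2 (0.063) or ET replicate 2 (0.26). With 2 of 10 members called, the share of all genes called was 7.35%. Rescaled, 5 of 10 members and 14.4% of genes were called. The further 3 were *BR6OX2* (log2 fold change -0.69, adjusted p = 0.0030), *ROT3* (-0.63, adjusted p = 0.027) and *BAS1* (-0.50, adjusted p = 0.041), all lower after ET. *BR6OX2* (adjusted p = 0.0077 at most) and *ROT3* (0.020) were also called on TPM without either *ein6-1* ET library.

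In *ein6-1*, *DWF4* had 9.84 and 6.75 TPM after ET, against 29.5 and 23.4 TPM in air, and *BR6OX1* had 2.94 and 1.20 TPM after ET, against 7.13 and 6.05 TPM in air. The lower value of each pair after ET comes from replicate 2, the library with the high ribosomal RNA share. *DWF4* had a log2 fold change of -1.57 (adjusted p = 1.4e-05) and *BR6OX1* of -1.36 (adjusted p = 0.00077, and 0.059 with the 2 compared groups fitted alone). Both stayed past the threshold when either ET library was left out, with log2 fold changes of at most -1.33 for *DWF4* and -0.94 for *BR6OX1*. *BR6OX2* had 43.5 and 22.2 TPM after ET, against 62.2 and 45.8 TPM in air, and was called lower (log2 fold change -0.76, adjusted p = 0.038). Without ET replicate 2 its log2 fold change was -0.29 (adjusted p = 0.42), and without air replicate 1 it was -0.54 (adjusted p = 0.35). Leaving out a library of *een-1* in air or *ein2-45* after ET also took it just past 0.05 (at most 0.052). These 3 of 10 members compare with 11.4% of all genes called.

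Rescaling moved the 2 transcription factor genes of *ein6-1* to the called side. *BES1*, at 182 and 118 TPM after ET and 122 and 92.9 TPM in air, had a log2 fold change of 0.46 on TPM (adjusted p = 0.14) and of 0.74 rescaled (adjusted p = 0.00088). *BZR1* had 47.1 and 28.4 TPM after ET, against 35.9 and 32.0 TPM in air, with log2 fold changes of 0.11 (adjusted p = 0.78) and 0.38 (adjusted p = 0.031). On TPM the libraries of the 2 conditions overlapped for both, and rescaled they did not. Rescaled, ET replicates 1 and 2 still differed for *BRI1* (80.3 and 44.5), *ROT3* (43.2 and 28.6) and *DET2* (19.2 and 29.7). They were closer for *CPD* (89.8 and 93.5) and *BAS1* (29.6 and 26.5). After rescaling 5 of 10 members were called, where 15.8% of genes were, and *BR6OX2* remained lower at -0.49 (adjusted p = 0.025). Without ET replicate 1, so that only the library rich in ribosomal RNA stood for ET, 6 members were called on TPM.

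In *ein6-1 een-1*, *DWF4* had 26.0 and 25.3 TPM after ET, against 36.9 and 31.3 TPM in air. *BR6OX1* had 6.17 and 5.53 TPM after ET, against 8.03 and 7.37 TPM in air. Both ET libraries lay below both air libraries for each gene. The log2 fold changes were -0.39 for *DWF4* (95% interval -0.79 to 0.00, adjusted p = 0.95) and -0.35 for *BR6OX1* (95% interval -0.85 to 0.16, adjusted p = 1). In *ein2-45*, *DWF4* had 51.8 and 52.7 TPM after ET, against 63.0 and 51.1 TPM in air, and the groups overlapped on TPM. *BR6OX1* had 11.8 and 12.2 TPM after ET, against 14.3 and 11.8 TPM in air. Their log2 fold changes were -0.12 (95% interval -0.51 to 0.28) and -0.11 (95% interval -0.62 to 0.40).

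By limma 0 of 10 members were called in either genotype on either scale, and 0 had an unadjusted p below 0.05 on TPM. Rescaled, *DWF4* in *ein6-1 een-1* alone did (log2 fold change -0.31, adjusted p = 0.39). The share of all genes called was 0.379% in *ein6-1 een-1* (0.613% rescaled) and 0% in *ein2-45* (0% rescaled), with 514 genes at an unadjusted p below 0.05 in *ein2-45*. The ET-response markers *ERF1*, *EBF2* and *ETR2* summed to 18.9 to 21.7 TPM after ET and 17.8 to 22.9 TPM in air in *ein2-45*, but in *ein6-1 een-1* the ET libraries lay above the air libraries, at 48.1 to 48.4 TPM and 31.7 to 32.8 TPM. The sums were 177 to 199.7 TPM after ET and 81.9 to 88.6 TPM in air in *een-1*, 84.2 to 205 TPM and 72.9 to 88.8 TPM in *ein6-1*, where they overlapped, and 166.5 to 215.5 TPM and 79.1 to 80.0 TPM in L*er*. *EBF2* alone overlapped in *ein6-1*. There *ETR2* had 19.1 to 41.2 TPM after ET and 11.9 to 13.3 TPM in air, and *ERF1* 1.59 to 3.11 and 0.18 to 0.47 TPM. In *ein2-45*, *ERF1* had 0.61 to 0.99 TPM after ET and 0.16 to 0.34 TPM in air. Seed markers summed to 3453 to 3601 TPM after ET and 5190 to 5444 TPM in air in *ein6-1 een-1*, and their part in these values was not tested.

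**Figure D2:**
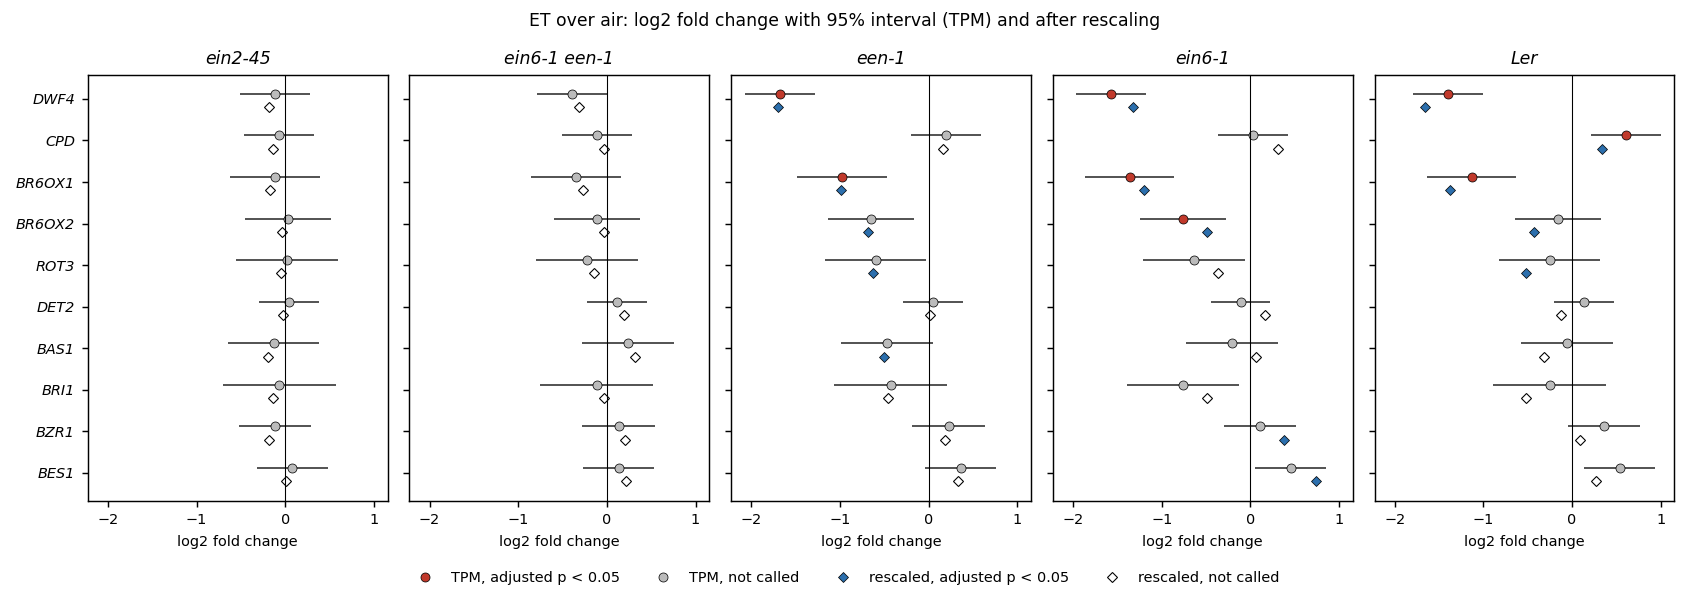
Log2 fold change of ET over air (horizontal axis) for the 10 genes (vertical axis) in each genotype. Circles with 95% intervals are on TPM, diamonds are rescaled, and filled red or blue marks have an adjusted p below 0.05. *DWF4* lies between -1.68 and -1.40 in *een-1*, *ein6-1* and L*er*, at -0.39 in *ein6-1 een-1* and at -0.12 in *ein2-45*.

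Differences in the ET response itself were tested against L*er*, whose 4 libraries all of these tests share. The fall of *DWF4* was smaller in *ein2-45* and in *ein6-1 een-1* than in L*er*: its log2 fold change was -0.12 in *ein2-45* and -0.39 in *ein6-1 een-1*, against -1.40 in L*er*. The differences, mutant minus L*er*, were 1.28 in *ein2-45* (SE 0.27, adjusted p = 0.0079) and 1.01 in *ein6-1 een-1* (adjusted p = 0.041). Rescaled, the differences were 1.48 (adjusted p = 2.5e-05) and 1.35 (adjusted p = 6.4e-05). For *BR6OX1* they were 1.02 in *ein2-45* (adjusted p = 0.11) and 0.79 in *ein6-1 een-1* (adjusted p = 0.18) on TPM, and 1.20 (adjusted p = 0.0044) and 1.10 (adjusted p = 0.0086) rescaled. On TPM 1 of 10 members was called in each, where 3.71% of genes were in *ein2-45* and 3.7% in *ein6-1 een-1*. Rescaled, 2 of 10 were called in each, where 9.36% and 9.08% of genes were.

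The *DWF4* call in *ein6-1 een-1* on TPM is close to the threshold. It was lost in 14 of the 20 fits that left out 1 library, including each of the 8 libraries compared, with adjusted p up to 0.16 and log2 differences between 0.89 and 1.12. In *ein2-45* it was lost without L*er* air replicate 2 (adjusted p = 0.050), L*er* ET replicate 1 (0.055) or *ein2-45* air replicate 2 (0.055). Leaving out either *ein6-1* ET library added *BR6OX1* and *CPD* to the calls in both genotypes. No member was called in the single mutants by limma, 0 of 10 on both scales. For *DWF4* the difference from L*er* was -0.18 in *ein6-1* (95% interval -0.74 to 0.38) and -0.28 in *een-1* (95% interval -0.84 to 0.28). At an unadjusted p below 0.05, 1 member passed in *ein6-1* and 0 in *een-1* on TPM (2 and 0 rescaled). Of all genes 0.0146% were called in *ein6-1* (0.0146% rescaled) and 0% in *een-1* (0% rescaled, with 1285 genes at an unadjusted p below 0.05 on TPM). In *ein6-1*, 6 members passed without ET replicate 1, when replicate 2 alone stood for ET.

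Over the 10 groups on TPM, *DWF4* had its lowest level in *ein6-1* after ET (8.30 ± 2.19 TPM, SD, n = 2), where replicate 2 is the library rich in ribosomal RNA, then *een-1* (11.4 ± 0.735) and L*er* (12.2 ± 1.48) after ET. The ranges of the last 2 overlapped. *ein6-1 een-1* after ET (25.7 ± 0.523) overlapped with *ein6-1* in air (26.5 ± 4.27), and L*er* in air (33.7 ± 3.29) with *ein6-1 een-1* in air (34.1 ± 3.92). *een-1* in air (38.8 ± 1.51) and both *ein2-45* groups (52.3 ± 0.636 after ET and 57.0 ± 8.40 in air) stood above these. Rescaled, *een-1* after ET (10.1) and *ein6-1* after ET (10.3) overlapped at the low end, and *een-1* in air (34.9 ± 0.450) lay below L*er* in air (39.4 ± 1.09) with no overlap. On TPM *BR6OX1* kept the same order, apart from the place of *een-1* after ET, between 2.07 ± 1.23 TPM in *ein6-1* after ET and 13.1 ± 1.78 TPM in *ein2-45* in air. *DWF4* spanned a 9.33-fold and *BR6OX1* an 11.9-fold range over the 20 libraries on TPM, against 1.50-fold for *DET2*, the member with the smallest range. Without *ein6-1* ET replicate 2, left out after its values were seen, the ranges were 6.40-fold for *DWF4* and 5.32-fold for *BR6OX1*, and rescaled with all libraries 6.39-fold and 7.21-fold.

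Among the 15064 other tested genes with a mean of at least 5 TPM, those most like *DWF4* over the 20 libraries were *CSLA14* (Pearson r = 0.99), AT5G61570 (0.98), AT5G41900 (0.98), AT1G78860 (0.97) and AT1G65295 (0.97), on rescaled log2 values. *BR6OX1* came in at rank 8 (r = 0.96). *CPD* had an r of -0.13 with *DWF4*, *BZR1* of -0.42 and *BES1* of -0.61. Most like *BAS1* were AT3G43670 (r = 0.96), *MLP28* (0.94), AT2G23690 (0.94), AT3G57400 (0.94) and *FLA15* (0.93). The libraries share groups of 2 and their scaling, so these values describe the samples only.

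In air, *DWF4* and *CPD* were higher in *ein2-45* than in L*er*, and *BES1* was lower. *DWF4* had 63.0 and 51.1 TPM in *ein2-45*, against 31.3 and 36.0 TPM in L*er*. *CPD* had 99.1 and 79.2 TPM in *ein2-45*, against 50.4 and 59.5 TPM in L*er*. *BES1* had 55.2 and 47.1 TPM in *ein2-45*, against 85.1 and 104.0 TPM in L*er*. None of the 3 pairs of groups overlapped. On TPM neither did those of *BR6OX1*, *BR6OX2*, *DET2*, *BAS1* and *BRI1*, which were not called. Rescaled, the groups of *BR6OX2* and *DET2* overlapped, those of *BR6OX1*, *BAS1* and *BRI1* did not, and *ROT3* lay below L*er*. The median gene was 0.18 higher in *ein2-45* on TPM, and the share of all genes without overlap was not counted. The log2 fold changes were 0.74 for *DWF4* (adjusted p = 0.010), 0.68 for *CPD* (adjusted p = 0.016) and -0.87 for *BES1* (adjusted p = 0.0035), and rescaled 0.54 (adjusted p = 0.0027), 0.48 (adjusted p = 0.0044) and -1.08 (adjusted p = 3.3e-05). *DWF4* and *CPD* lost the call without L*er* air replicate 1 (adjusted p = 0.13 and 0.18) or *ein2-45* air replicate 1 (0.15 and 0.20), and *BES1* without L*er* air replicate 2 (0.056).

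*BR6OX1*, at 14.3 and 11.8 TPM in *ein2-45* and 7.56 and 7.61 TPM in L*er*, had a log2 fold change of 0.71 that missed the threshold on TPM (adjusted p = 0.054) and passed it rescaled (0.52, adjusted p = 0.037). Thus 3 of 10 members were called on TPM, where 15.8% of genes were, and 4 of 10 rescaled, where 23.1% were. The other 6 members had log2 fold changes between 0.09 and 0.43 on TPM. Seed markers summed to 90.9 to 146.4 TPM in *ein2-45*, against 752 to 780.0 TPM in L*er*, and light-exposed markers (*ELIP1*, *ELIP2*, *TT4*) to 62.9 to 95.4 TPM, against 18.5 to 18.7 TPM. Their part in these differences was not tested.

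In *ein6-1 een-1* in air, *BES1* was the member called on TPM. It had 47.6 and 39.0 TPM in *ein6-1 een-1*, against 85.1 and 104.0 TPM in L*er*, a log2 fold change of -1.11 (SE 0.19, adjusted p = 0.00029) and of -1.48 rescaled (adjusted p = 1.2e-06). The call held in all 29 alternative fits. With 1 of 10 members called, 34.8% of all tested genes were called, a larger share. Scaling matters in this comparison, since the median gene was 0.33 higher in *ein6-1 een-1* on TPM. Rescaled, 6 of 10 members were called, all lower, where 37.3% of genes were. *BAS1* (15.6 and 10.7 TPM in *ein6-1 een-1*, against 17.1 and 20.7 TPM in L*er*) had log2 fold changes of -0.51 on TPM (adjusted p = 0.12) and -0.87 rescaled (adjusted p = 0.00055). *BZR1* (25.2 and 22.9 TPM in *ein6-1 een-1*, against 28.2 and 32.4 TPM in L*er*) had -0.32 (adjusted p = 0.20) and -0.69 (adjusted p = 0.00027). *CPD* had log2 fold changes of -0.11 on TPM and -0.49 rescaled (adjusted p = 0.0024), and *ROT3* of -0.13 and -0.50 (adjusted p = 0.039). *DWF4* changed sign with the scale, at 0.02 on TPM (adjusted p = 0.96) and -0.35 rescaled (adjusted p = 0.021). On TPM, 3 members were called when either *ein6-1* ET library was left out (*BES1*, *BAS1* and *BZR1*). Seed markers summed to 5190 to 5444 TPM in *ein6-1 een-1*, against 752 to 780.0 TPM in L*er*. Light-exposed markers summed to 13.2 to 18.2 TPM, against 18.5 to 18.7 TPM. The part of these markers in the differences was not tested.

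The single mutants had 0 of 10 members called in air by limma on TPM, and 0 (*ein6-1*) and 1 (*een-1*) had an unadjusted p below 0.05. Of all genes 4.19% were called in *ein6-1* and 23.7% in *een-1*. Rescaled, 1 of 10 members was called in each, where 6.8% and 24.7% of genes were. In *ein6-1* this was *DWF4*, with 29.5 and 23.4 TPM in *ein6-1*, against 31.3 and 36.0 TPM in L*er* (log2 fold change -0.34 on TPM, adjusted p = 0.40, and -0.52 rescaled, adjusted p = 0.0093). In *een-1* it was *BES1*, with 80.5 and 72.2 TPM in *een-1*, against 85.1 and 104.0 TPM in L*er* (log2 fold change -0.30 on TPM, adjusted p = 0.25, and -0.68 rescaled, adjusted p = 0.0022). In *een-1*, 3 members (*CPD*, *BR6OX2* and *BRI1*) passed as higher on TPM without either *ein6-1* ET library, and their rescaled log2 fold changes were 0.04, 0.09 and 0.07. All 4 comparisons in air share the L*er* libraries. Seed markers summed to 25.4 to 34.6 TPM in *ein6-1* and 604 to 1422 TPM in *een-1*, against 752 to 780.0 TPM in L*er*. Light-exposed markers summed to 28.8 to 33.9 TPM in *ein6-1* and 35.9 to 46.4 TPM in *een-1*, against 18.5 to 18.7 TPM in L*er*. Among them *ELIP2* was not higher in *een-1*, at 1.26 to 1.91 TPM, against 1.49 to 2.99 TPM in L*er*. The part of these markers in the differences was not tested. On TPM *BES1* lay in the order *ein6-1 een-1* (43.3 ± 6.05 TPM), *ein2-45* (51.2 ± 5.75), *een-1* (76.3 ± 5.83), L*er* (94.5 ± 13.4) and *ein6-1* (107.4 ± 20.5) in air, with overlap between *ein6-1 een-1* and *ein2-45* and between L*er* and *ein6-1*.

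**Figure D3:**
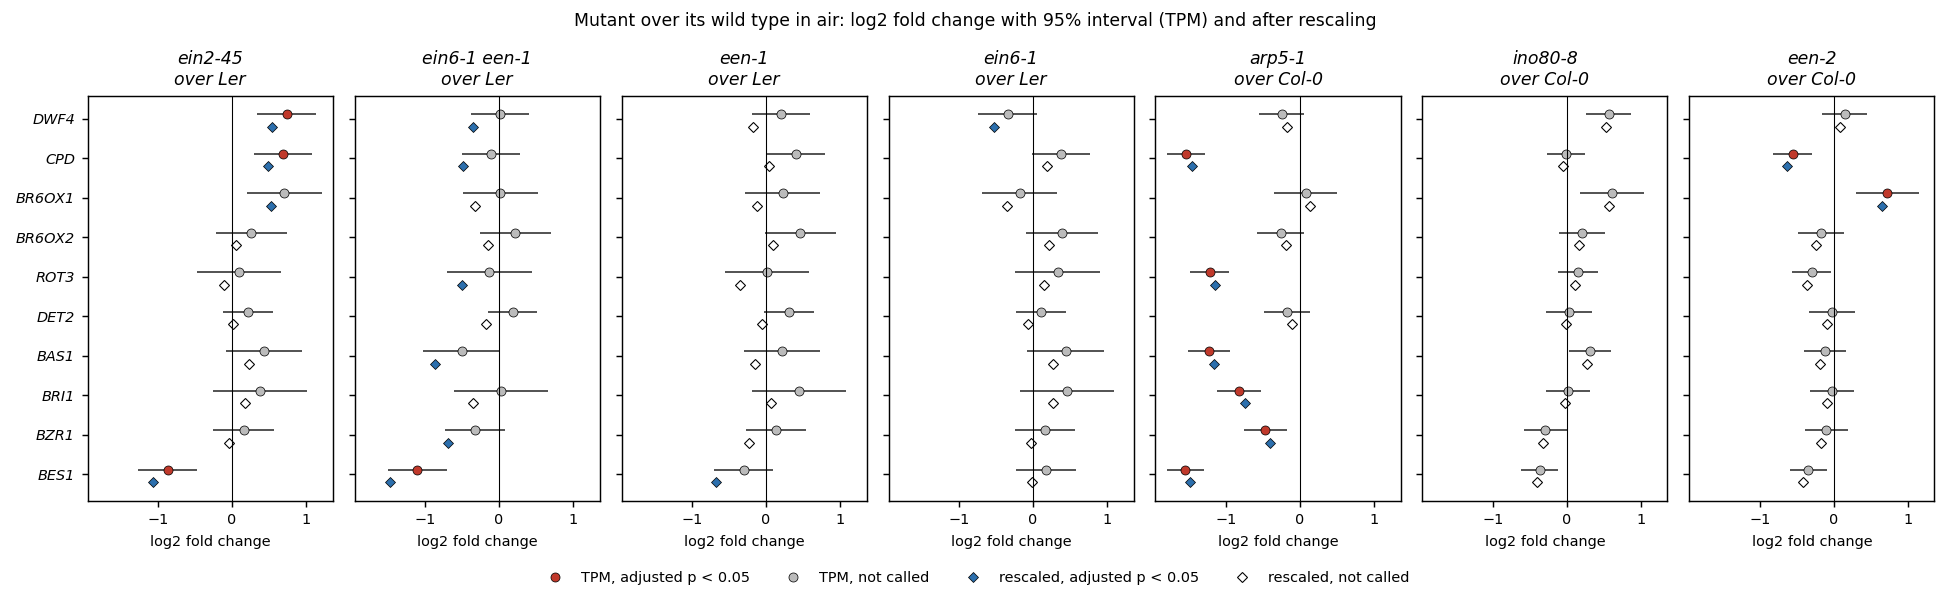
Log2 fold change of each mutant over its wild type in air (horizontal axis) for the 10 genes (vertical axis), the L*er* background on the left and the Col-0 background on the right. Circles with 95% intervals are on TPM, diamonds are rescaled, and filled red or blue marks have an adjusted p below 0.05. *BES1* lies at -0.87 in *ein2-45*, -1.11 in *ein6-1 een-1* and -1.55 in *arp5-1*.

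In the Col-0 background, *arp5-1* had lower levels of 6 of the 10 members, on TPM and rescaled alike. They were *CPD*, *ROT3*, the inactivation gene *BAS1*, the receptor gene *BRI1* and the transcription factor genes *BZR1* and *BES1*. Many genes of all kinds were called in this mutant, 50.4% in either direction (51.2% rescaled) and 27.9% as lower. The median log2 fold change was -0.64 over the 10 members, against -0.07 over all tested genes. *CPD* had 39.6 and 44.8 TPM in *arp5-1*, against 121 and 128 TPM in Col-0. *BES1* had 75.4 and 78.4 TPM in *arp5-1*, against 246 and 210.2 TPM in Col-0. The groups of both genes were far apart. The log2 fold changes were -1.54 for *CPD* (SE 0.12, adjusted p = 1e-05) and -1.55 for *BES1* (SE 0.11, adjusted p = 8.4e-06), and rescaled -1.47 and -1.48.

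*ROT3* had 27.9 and 31.4 TPM in *arp5-1*, against 68.6 and 72.2 TPM in Col-0, a log2 fold change of -1.22 (adjusted p = 4.2e-05). *BAS1* had 13.6 and 11.7 TPM in *arp5-1*, against 32.3 and 29.6 TPM in Col-0 (log2 fold change -1.23, adjusted p = 6e-05). *BRI1* had 38.3 and 48.1 TPM in *arp5-1*, against 81.7 and 71.6 TPM in Col-0 (log2 fold change -0.82, adjusted p = 0.00077). Of the 6 synthesis genes *CPD* and *ROT3* alone were called. *BZR1*, at 26.8 and 31.1 TPM in *arp5-1* and 42.7 and 38.1 TPM in Col-0, had a log2 fold change of -0.47 (adjusted p = 0.013), which was lost without Col-0 replicate 1 (0.083) or *arp5-1* replicate 1 (0.071). The other 5 calls held in all 16 alternative fits. *DWF4* and *BR6OX1*, the genes most lowered by ET, were not called, with 33.3 and 29.5 TPM in *arp5-1* and 41.2 and 33.8 TPM in Col-0 for *DWF4*, and 8.08 and 12.3 TPM in *arp5-1* and 8.90 and 9.91 TPM in Col-0 for *BR6OX1*. Their 95% intervals of the log2 fold change ran between -0.55 and 0.06 and between -0.35 and 0.51. Seed markers summed to 2279 to 2538 TPM in *arp5-1*, against 21.7 to 23.1 TPM in Col-0, and light-exposed markers to 16.4 to 16.9 TPM, against 61.2 to 94.0 TPM. Their part in these differences was not tested.

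*een-2* had 2 of 10 members called, in opposite directions, where 9.67% of genes were called (9.05% rescaled, with the same 2 members). *CPD* had 87.1 and 81.0 TPM in *een-2*, against 121 and 128 TPM in Col-0 (log2 fold change -0.56, adjusted p = 0.019). *BR6OX1* had 16.4 and 16.0 TPM in *een-2*, against 8.90 and 9.91 TPM in Col-0 (log2 fold change 0.73, adjusted p = 0.044). The libraries did not overlap for either gene. Both calls were near the threshold and were lost with libraries left out: *CPD* without Col-0 replicate 1 (0.061) or 2 (0.10) or *een-2* replicate 2 (0.12), and *BR6OX1* without any 1 of the 6 Col-0, *een-2* and *ino80-8* libraries (0.069 to 0.18).

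*ino80-8* had 0 of 10 members called by limma on both scales, with 4 at an unadjusted p below 0.05, where 2.98% of genes were called (2.93% rescaled). The nearest was *DWF4*, at 53.8 and 57.9 TPM in *ino80-8* and 41.2 and 33.8 TPM in Col-0, with a log2 fold change of 0.57 (95% interval 0.26 to 0.87, adjusted p = 0.060). *BR6OX1* had 14.2 and 15.6 TPM in *ino80-8*, against 8.90 and 9.91 TPM in Col-0 (log2 fold change 0.61, adjusted p = 0.13). *BES1* had 179.5 and 173 TPM in *ino80-8*, against 246 and 210.2 TPM in Col-0 (log2 fold change -0.37, adjusted p = 0.12), and 179.2 and 178.8 TPM in *een-2* (log2 fold change -0.34, adjusted p = 0.082). The 3 mutants share the 2 Col-0 libraries, so that a high or low Col-0 value moves all 3 comparisons together. Seed markers summed to 568 to 622 TPM in *ino80-8* and 429 to 592 TPM in *een-2*, against 21.7 to 23.1 TPM in Col-0, and light-exposed markers to 15.7 to 19.7 TPM in *ino80-8* and 23.7 to 39.3 TPM in *een-2*, against 61.2 to 94.0 TPM in Col-0. Their part was not tested.

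**Figure D4:**
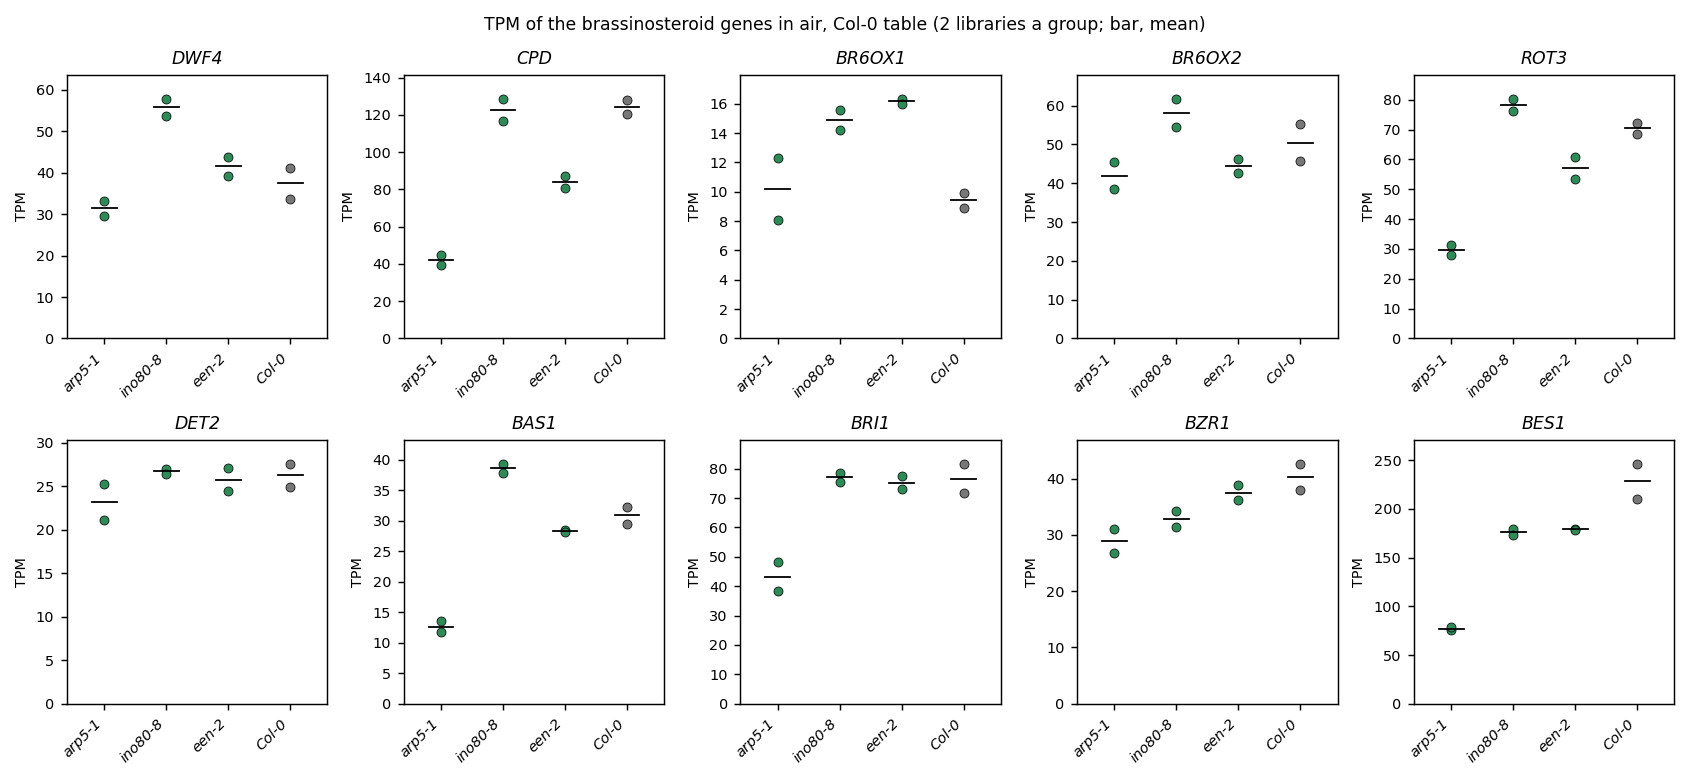
TPM (vertical axis) of each of the 10 genes in the Col-0 table, by genotype (horizontal axis), with mutants in green to the left of Col-0 in grey. Points are libraries (2 a group) and bars are means. *BES1* has 75.4 and 78.4 TPM in *arp5-1* and between 173 and 246 TPM elsewhere.

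*BES1* shares 818 bases with *RRA3* on the opposite strand, and whether the libraries kept strand is not given in the sources used here. On TPM *RRA3* did not fall with *BES1*. It had 68.5 and 57.4 TPM in *arp5-1*, against 48.7 and 52.8 TPM in Col-0. In *ein6-1 een-1* it had 67.7 and 59.4 TPM, against 52.6 and 55.6 TPM in L*er*. Its log2 fold changes were 0.30 in *arp5-1* (adjusted p = 0.067), 0.23 in *ein6-1 een-1* (adjusted p = 0.37) and 0.03 in *ein2-45* (adjusted p = 0.94). Rescaled, they were 0.37 (adjusted p = 0.052), -0.15 (adjusted p = 0.21) and -0.17 (adjusted p = 0.18), so the sign changed in the last 2. *BZR1* shares 629 bases with AT1G75090 on the opposite strand. AT1G75090 had log2 fold changes of -0.50 in *arp5-1* (adjusted p = 0.062) and 0.94 in *ein6-1 een-1* (adjusted p = 0.0041) on TPM. After ET in L*er* it had 0.65 on TPM (adjusted p = 0.049 by limma) and 0.45 rescaled (adjusted p = 0.12). Its part in the *BZR1* values was not tested. *CPD*, *ROT3* and *DET2* share 20 to 83 bases with a neighbor. *BZR1* and *BES1* are close relatives, whose longest alignment between transcript and genome covers 752 bases at 83.8% identity, and *BR6OX1* and *BR6OX2* align over 232 bases at 82.3%.

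Beyond the 10 members, 54 other genes of the pathway were listed by role, and 51 of them passed the filter in the L*er* table and 52 in the Col-0 table. After ET in L*er*, 5 were higher and 3 lower on TPM (3 and 17 rescaled). In *een-1* 1 was higher and 8 lower (2 and 14 rescaled), and in *ein6-1* 3 were higher and 14 lower (3 and 13 rescaled). By limma 0 of 51 were called in *ein6-1 een-1* and *ein2-45* on both scales, with 3 and 0 at an unadjusted p below 0.05 (5 and 1 rescaled). Of the 16 response genes tested, 4 were higher and 2 lower in L*er* on TPM (2 and 6 rescaled). The shares of all genes called were 19.5% in L*er*, 7.35% in *een-1* and 11.4% in *ein6-1* (21.7%, 14.4% and 15.8% rescaled). In L*er* on TPM, 8 of 51 was no larger a share than among all genes. In *een-1* and *ein6-1* on both scales, and in L*er* rescaled, the listed genes were called at a larger share. These differences in share were not tested.

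*PRE1*, a helix-loop-helix gene that promotes elongation, had 20.5 and 23.7 TPM after ET, against 50.9 and 53.5 TPM in air, in L*er*. Its log2 fold change was -1.21 in L*er* (adjusted p = 0.00026), -1.98 in *een-1* and -1.54 in *ein6-1*. The expansin gene *EXPA8* had log2 fold changes of -0.93 in L*er* and -1.37 in *een-1*. Both were lower after ET where *DWF4* was, and neither was called in *ein6-1 een-1* or *ein2-45*. *PRE1* had log2 fold changes of 0.08 in *ein6-1 een-1* and -0.00 in *ein2-45*, which differed from that of L*er* by 1.29 (adjusted p = 0.010) and 1.20 (adjusted p = 0.013). *EXPA8* had 0.22 and 0.02, and for it the differences were 1.15 (adjusted p = 0.012) and 0.95 (adjusted p = 0.035). *BEE1* and *BEE3*, named for their rise with brassinosteroid, rose after ET in L*er* by 1.12 and 1.59 on the log2 scale, and *BEE3* rose by 1.31 in *ein6-1* and 0.97 in *een-1*. *BEE2*, which bears the same name, went the other way and was called lower in *een-1*. There it changed by -1.11 after ET (limma, adjusted p = 0.00069) and by -1.14 when rescaled. *BRS1*, a carboxypeptidase gene of BRI1 signaling, fell by 1.73 in *ein6-1*.

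In air, *BEE3* was the listed gene furthest from L*er* in 2 mutants, at -2.67 in *ein2-45* (adjusted p = 2.4e-06) and -2.41 in *ein6-1 een-1* (adjusted p = 4e-06). *CYP90D1*, whose enzyme shares its step with ROT3, was higher, by 1.26 in *ein2-45*, 1.68 in *ein6-1 een-1* and 1.00 in *een-1*. *BAT1*, an acyltransferase gene of hormone inactivation, was higher by 1.55 in *ein2-45*, 1.14 in *een-1* and 1.27 in *ein6-1*. The BRI1-like receptor gene *BRL2* was higher by 1.22 in *ein2-45*, 0.98 in *een-1* and 0.97 in *ein6-1*. Over all 51 genes, 5 were higher and 1 lower in *ein2-45* (6 and 7 rescaled), 7 and 9 in *ein6-1 een-1* (6 and 21 rescaled), 9 and 0 in *een-1* (5 and 7 rescaled) and 3 and 0 in *ein6-1* (3 and 2 rescaled). On TPM 15.8%, 34.8%, 23.7% and 4.19% of all genes were called in these 4 mutants. On that scale the listed genes were called no more often than genes at large in the first 3. Rescaled, 23.1%, 37.3%, 24.7% and 6.8% of all genes were called. The listed genes were then called more often than genes at large in *ein6-1 een-1*, and about as often in *ein2-45* and *een-1*.

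In *arp5-1*, 6 of 52 listed genes were higher and 22 lower (6 and 18 rescaled). Lower on TPM were 4 of 5 inactivation genes (3 rescaled), 3 of 6 receptor genes (3) and 5 of 12 signal relay genes (4). So were 7 of 16 response genes (7 rescaled), 2 of 4 transcription factor genes (1) and 1 of 9 synthesis genes (0). With 50.4% of all genes called, 28 of 52 in either direction is close to the share among all genes. On TPM 27.9% of all genes were lower and 4537 of 20152 were higher. Beside these, 22 of 52 lower was a larger share and 6 of 52 higher a smaller one. This lean was not tested. *MYBL2*, which encodes a MYB repressor that acts with BES1, had a log2 fold change of -2.69 in *arp5-1* (adjusted p = 2.9e-05) and -2.27 in *een-2* (adjusted p = 0.0016). *EXPA8* (-1.56), the elongation inhibitor gene *IBH1* (-1.39) and *BEE3* (-1.33) followed in *arp5-1*. In *een-2*, 2 listed genes were higher and 1 lower, where 9.67% of all genes were called. The sterol reductase gene *FK* was among the higher, with a log2 fold change of 0.90. In *ino80-8* 1 listed gene was higher, the wall enzyme gene *TCH4* (0.75, adjusted p = 0.023), where 2.98% of all genes were called.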

How the data were processed

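RNA of 28 libraries was used, 2 in each of 14 groups. Per the study's methods, the authors used STAR 2.6.0c to align single reads to TAIR10, RSEM 1.3.0 to obtain gene levels, and edgeR to test differential expression. The deposited values are TPM for 33602 genes, and 4 columns that stand in both tables with equal values (*een-1* and L*er* in air) were used once. Read depth is unknown, so no counting error can be given.

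Here each table got its own limma model of log2(TPM + 1) (version 3.58.1 under R 4.3.3, moderated t statistics, variance trend, Benjamini-Hochberg adjustment), over genes that reached 1 TPM in 2 or more libraries. The model was repeated after median-of-ratios scaling, without a minimum, at 5 TPM, with pseudocounts of 0.1 and 5, without rRNA and organelle genes, on the compared groups only, with a replicate block and with each library left out. The members, the gene lists and the rules were chosen with earlier results of these data known. All members are named. Of the other pathway genes, at most the 4 with the largest changes among those called are named per comparison, and for *DWF4* and *BAS1* the 5 genes most like them. Of 55 other pathway genes, 1 was left out because the reference does not give its name. Positions and promoters come from RefSeq TAIR10.1, which shares its nuclear coordinates with TAIR10, and alignments from blastn. Root markers (*PIN2*, *COBL9*, *EXPA7*) summed to 41.9 to 93.8 TPM. In air the sums were 82.27 to 92.25 TPM in *ein6-1 een-1* and 47.6 to 47.9 TPM in *ein2-45*, against 62.5 to 64.6 TPM in L*er*. Those of *een-1* and *ein6-1* overlapped with L*er*. They were 72.76 to 89.85 TPM in *arp5-1* and 72.18 to 77.35 TPM in *een-2*, against 55.2 to 61.2 TPM in Col-0. The sums of *ino80-8* overlapped with Col-0. The part of root markers was not tested. Histone mark and DNA methylation files were not used. Figures were drawn with matplotlib 3.10.9.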

Additional observations from a re-analysis of the deposited data

Results flagged for a closer look

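The ET response of *DWF4* differed from that of L*er* in 2 genotypes by the test of the difference itself. Its log2 fold change was -0.12 in *ein2-45* and -0.39 in *ein6-1 een-1*, against -1.40 in L*er*, which are differences of 1.28 (adjusted p = 0.0079 by limma) and 1.01 (adjusted p = 0.041). In *ein6-1 een-1* both ET libraries lay below both air libraries on TPM and rescaled. In *ein2-45* they lay between the 2 air libraries on TPM and below both when rescaled.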

How the results depend on the processing

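The number of members called depended on the scale and on single libraries more than on the filter or the pseudocount. Shares of all genes called are given above for the TPM and rescaled fits only. Counts of members from other settings, or with a library left out, are therefore not set against genes at large. With median-of-ratios scaling 5 of 10 members were called for ET in each of L*er*, *een-1* and *ein6-1*, 2 for the difference in ET response in *ein2-45* and in *ein6-1 een-1*, and in air 6 in *ein6-1 een-1* and 1 in each of *een-1* and *ein6-1*. With the same scaling but without both *ein6-1* ET libraries, the numbers were 6 for ET in L*er* and in *een-1*, 3 and 2 for the differences in *ein2-45* and *ein6-1 een-1*, and in air 7 in *ein6-1 een-1* and 1 in each of *een-1* and *ein6-1*. Fitting the compared groups only gave 6 for ET in *een-1*, 1 for ET in *ein6-1*, 3 and 2 for the differences in *ein2-45* and *ein6-1 een-1*, and in air 2 in *ein6-1 een-1*, 3 in *een-1* and 1 in *een-2*. Without rRNA and organelle genes the numbers were 3 for each of the 2 differences, and in air 3 in *ein6-1 een-1* and 1 in each of *een-1* and *ein6-1*. With no minimum on TPM limma called 0 for the difference in *ein6-1 een-1* and 0 in *een-2*, where 33602 genes were tested. Apart from the values that follow, no other member value changed sign past the threshold. In *ein6-1 een-1* in air, *DWF4* was at -0.35 with median-of-ratios scaling (adjusted p = 0.021) and also at -0.35 without both *ein6-1* ET libraries (adjusted p = 0.015), where *BRI1* was at -0.34 (adjusted p = 0.039), against 0.02 and 0.03 on TPM with no call.

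With each library left out in turn, between 2 and 5 members were called for ET in L*er*, 1 to 4 in *een-1*, 2 to 6 in *ein6-1* and 0 in *ein6-1 een-1* and *ein2-45*. For the differences in ET response the ranges were 0 to 3 in *ein2-45*, 0 to 3 in *ein6-1 een-1*, 0 to 6 in *ein6-1* and 0 in *een-1*. In air they were 1 to 4 in *ein2-45*, 1 to 3 in *ein6-1 een-1*, 0 to 3 in *een-1*, 0 in *ein6-1*, 5 to 6 in *arp5-1*, 0 to 2 in *een-2* and 0 in *ino80-8*. The calls of *DWF4* for ET in L*er* and *een-1*, of *BR6OX1* for ET in L*er*, and of *BES1* in *ein6-1 een-1* in air held in all 29 alternatives, with adjusted p of at most 0.0025, 0.00064, 0.037 and 0.0088. Replicate numbers did not pair the libraries (correlations of deviations between -0.095 and 0.14), and a replicate block gave 1 call in *ino80-8* and changed 3 of the 160 member values, all towards a call. Of 160 member values, pseudocounts of 0.1 and 5 changed 0 and 1 call. Groups of 2 libraries and an unknown depth limit these values, and a level near 1 TPM, such as *BR6OX1* in *ein6-1* after ET, has its fold change lowered by the pseudocount.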
